A study of Mus musculus with 2 samples.

Results

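Repeat entries whose names mark old families were examined for H3.3S31ph, the phosphorylated form of serine 31 on histone H3.3, in mitotic mouse embryonic stem (ES) cells. The entries were selected by name and no measured value entered the selection, but groups and comparison lists were set with earlier results of these data known. Names beginning with UCON, Eulor, MamSINE, AmnSINE, LFSINE, MamRep or X followed by a digit were taken from tables of 952 repeat types. This gave 68 entries, of which 32 were UCON, 21 Eulor, 11 MamRep, 2 AmnSINE, 1 MamSINE (MamSINE1) and 1 LFSINE (LFSINE_Vert), while the X prefix matched 0 entries. The study compared 1 H3.3S31ph ChIP sample with 1 input sample, meaning fragmented chromatin that saw no antibody. Both came from wild-type ES cells of the mouse strain 129S1/SvImJ, arrested for 12 hours by 9 µM RO-3306, which blocks the mitotic kinase CDK1, and collected 11 hours after it was washed out. No genetic change or further treatment is named for either sample. The tables list repeats and no genes, so neither the ES cell identity nor the mitotic state could be checked from them.

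UCON and Eulor entries are low-copy repeats recognised in vertebrate genomes largely because their copies have been conserved, and copies of several such families are known to lie in regulatory DNA. AmnSINE, LFSINE and MamSINE are short interspersed elements (SINEs) named for the amniote, lobe-finned fish and mammalian lineages. Some AmnSINE and LFSINE copies have been taken over by the host as enhancers, a process called exaptation. MamRep entries are interspersed repeats shared among mammals. H3.3 is the histone H3 variant deposited outside DNA replication, and phosphorylation of its serine 31 is a mark of mitotic chromosomes.

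The tables held 12235477 ChIP reads and 8856751 input reads over 2 sequencing lanes of the same libraries. There was 1 sample per group and hence no replicate check and no p-value. A ratio below divides the percentage of all ChIP reads in the tables that an entry holds by its percentage of all input reads there, so 1 is the input level. Each ratio is followed by its 95% exact conditional interval, which covers counting error only. Percentages sum to a fixed total, so the ratio of each entry depends on all others. The median of the 704 entries with at least 100 input reads lay at a ratio of 0.805 (log2 ratio -0.31), and values are also given relative to this median repeat.

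All 6 named groups were underrepresented in the H3.3S31ph ChIP relative to input on the scale of the table totals, and MamSINE1 turned to the other side once the median repeat was set to 1. Together the 68 entries held 22572 ChIP reads and 21609 input reads, or 0.184% of the ChIP total and 0.244% of the input total. Their pooled ratio was 0.756 (0.742 to 0.770). Relative to the median repeat it was 0.939 (0.922 to 0.957), so most of the distance from the input level was shared with the bulk of repeats. The label of conserved repeats covers unequal amounts of reads. MamRep supplied 69.6% of the input reads of the 68 entries, and the single entry MamRep1527 supplied 47.0%, whereas UCON supplied 14.3% and Eulor 6.59%. Without MamRep the pooled ratio was 0.764 (0.739 to 0.790), and UCON and Eulor together had 0.747 (0.717 to 0.778). These last pools were added after the data had been seen. The tables hold no conservation scores and no positions, so whether the reads came from conserved copies was not tested.

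**Figure D1:**
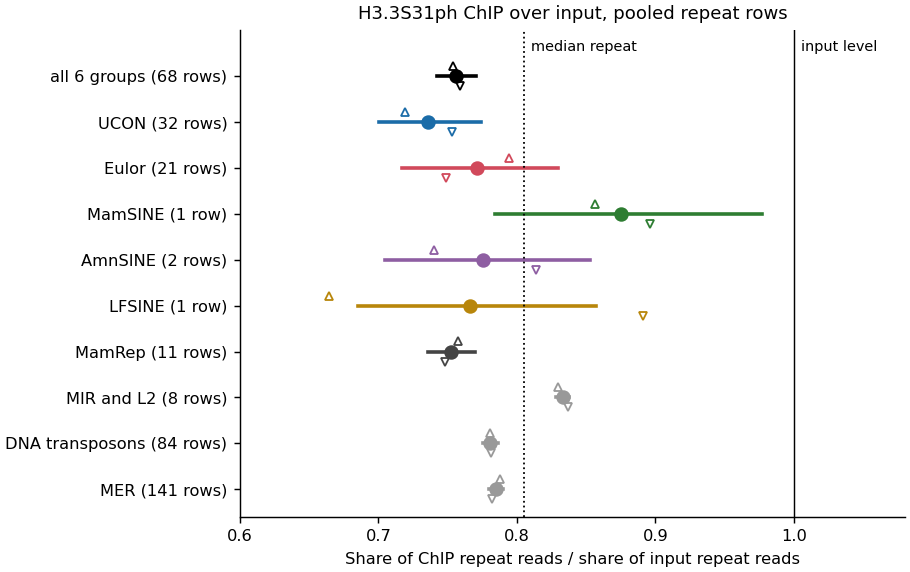
Ratio of ChIP share to input share (x axis) for the 6 name groups, all 68 entries together and, in grey, 3 lists of repeats taken as old by name. Filled circles with bars are both lanes summed with their 95% counting interval, upward triangles are lane 1 and downward triangles are lane 2, and the dotted line marks the median repeat at 0.805. All groups lie left of the input level at 1. UCON, MamRep, the 68 entries together and the DNA transposon and MER lists lie left of the median repeat with their whole interval. Without MamRep1527 the MamRep interval, not drawn, includes the median repeat.

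UCON had the lowest pooled ratio of the 6 groups. In lane 1 the 32 UCON entries had 1568 ChIP reads against 1569 input reads, and in lane 2 they had 1582 ChIP reads against 1529 input reads. UCON thus held 0.0257% of the ChIP total and 0.0350% of the input total, a ratio of 0.736 (0.700 to 0.774). Set against the median repeat the pool stood at 0.914 (0.870 to 0.961). In lane 1 alone this relative value was 0.892 (0.831 to 0.957), and in lane 2 it was 0.934 (0.870 to 1.003), so the lane 2 interval just included the median repeat.

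Single UCON entries were scarce, with 15 to 267 input reads each. The most abundant, UCON29, had 281 ChIP reads against 267 input reads and a ratio of 0.762 (0.642 to 0.904). The lowest ratio among the 12 entries with at least 100 input reads was that of UCON5, with 39 and 49 ChIP reads in lanes 1 and 2 against 61 and 55 input reads. Its ratio was 0.549 (0.411 to 0.731), rank 2 from the bottom of the 704 entries. UCON7 had 160 ChIP reads against 190 input reads, giving a ratio of 0.610 (0.491 to 0.756). UCON28a had 178 ChIP reads against 205 input reads, giving a ratio of 0.629 (0.511 to 0.772). These 3 entries were the only UCON entries with at least 100 input reads whose interval lay below the median repeat. Their ratios divided by that of the median repeat were 0.682 for UCON5, 0.757 for UCON7 and 0.781 for UCON28a. The highest of the 12 was UCON2, with 232 ChIP reads against 196 input reads and a ratio of 0.857 (0.705 to 1.04), which included the input level. The interval of UCON5 also excluded the ratio of the UCON pool, while those of the other 11 entries included it. Among the 20 UCON entries under 100 input reads all 20 intervals included the pool ratio, from the most abundant, UCON13 at 0.918 (0.698 to 1.21), to the least abundant, UCON1 at 1.16 (0.583 to 2.37). Over all 68 entries, 65 intervals included the ratio of the pool of their own name group, and UCON5, Eulor4 and MamRep564 were the exceptions. A few such misses can arise from counting error alone among this many intervals, so these exceptions do not set the entries apart from their pools. Each pool also contains the entry set against it.

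**Figure D2:**
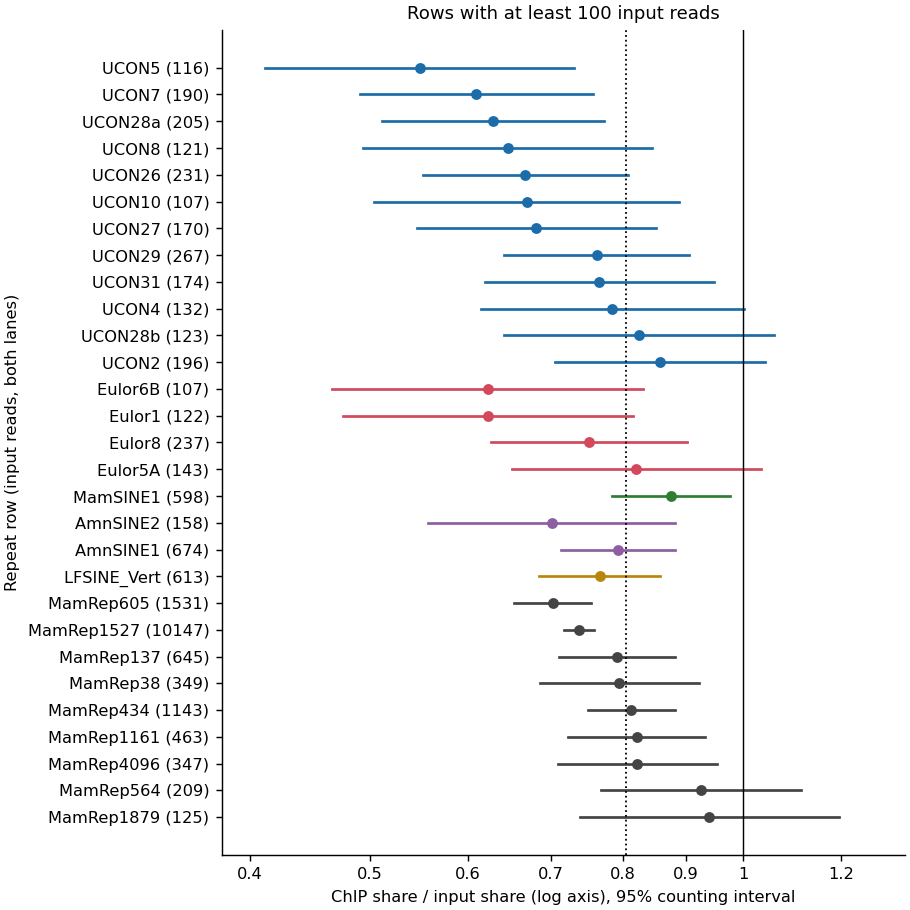
Ratio of ChIP share to input share on a log axis for 29 entries, those with 100 input reads or more, with the 95% counting interval as a bar and the input reads of both lanes in brackets after each name. The solid line is the input level and the dotted line the median repeat. Every point lies below 1, from UCON5 at 0.549 to MamRep1879 at 0.938, and the widths show how few reads stand behind most UCON and Eulor entries.

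Eulor entries, once pooled, were not separated from the median repeat. The 21 entries had 770 and 747 ChIP reads in lanes 1 and 2 against 698 and 726 input reads. Their pooled ratio was 0.771 (0.717 to 0.830), and 0.958 (0.891 to 1.03) relative to the median repeat. Only 4 Eulor entries had at least 100 input reads. Of these, Eulor8 was the most abundant, with 246 ChIP reads against 237 input reads and a ratio of 0.751 (0.626 to 0.902). Eulor6B was the lowest at 0.622 (0.466 to 0.830), and Eulor5A the highest at 0.820 (0.651 to 1.03). None of the 4 had an interval that excluded the median repeat. The 17 scarcer entries ran from Eulor9A, with 114 ChIP reads against 93 input reads and a ratio of 0.887 (0.669 to 1.18), to Eulor7, with 8 ChIP reads against 4 input reads and a ratio of 1.45 (0.388 to 6.57).

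The following Eulor and UCON values were chosen after they were seen. Eulor4 had 24 ChIP reads in each lane against 44 input reads in lane 1 and 30 in lane 2. Its ratio of 0.470 (0.320 to 0.684) was the lowest of all 68 entries and lay below both the Eulor pool and the median repeat, on 74 input reads. Lettered versions of 1 repeat name are related sequences, so their reads were also summed by number. UCON28, with 3 entries, had 387 ChIP reads against 401 input reads and a ratio of 0.699 (0.606 to 0.805). Eulor6, with 5 entries, had 0.732 (0.614 to 0.874), and Eulor2, with 3 entries, had 0.732 (0.591 to 0.907). Eulor9, with 3 entries, had 225 ChIP reads against 165 input reads and a ratio of 0.987 (0.804 to 1.21), close to input, with 1.20 in lane 1 and 0.834 in lane 2. Relative to the median repeat its interval of 0.999 to 1.51 just included 1, as did the UCON28 interval of 0.753 to 1.001. Eulor5 and UCON12, with 2 entries each, had 0.854 (0.698 to 1.05) and 0.843 (0.625 to 1.14).

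Among the SINE-derived entries, MamSINE1 stood nearest to input. It had 371 and 352 ChIP reads in lanes 1 and 2 against 312 and 286 input reads, giving a ratio of 0.875 (0.784 to 0.977). Its value relative to the median repeat was 1.09 (0.974 to 1.21), which does not separate it from the bulk of repeats. AmnSINE1 had 738 ChIP reads against 674 input reads, giving a ratio of 0.793 (0.713 to 0.881). The scarcer AmnSINE2 had 153 ChIP reads against 158 input reads, giving a ratio of 0.701 (0.558 to 0.881), and the intervals of both AmnSINE entries overlapped. LFSINE_Vert had 310 ChIP reads against 336 input reads in lane 1 and 339 ChIP reads against 277 input reads in lane 2. Its ratio was 0.766 (0.685 to 0.857) over both lanes, 0.664 (0.567 to 0.777) in lane 1 and 0.891 (0.758 to 1.05) in lane 2. Relative to the median repeat the lane 1 interval of LFSINE_Vert, 0.704 to 0.964, excluded 1 and the lane 2 interval, 0.940 to 1.30, did not, so its place against the bulk of repeats was not settled by these reads.

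MamRep was the best-measured group. Its 11 entries had 7937 and 7705 ChIP reads in lanes 1 and 2 against 7546 and 7498 input reads, giving a ratio of 0.753 (0.736 to 0.770). With the median repeat as 1 the pool stood at 0.935 (0.914 to 0.956). MamRep1527 alone had 10340 ChIP reads against 10147 input reads, giving a ratio of 0.738 (0.718 to 0.758), and 0.916 (0.892 to 0.942) relative to the median repeat. MamRep605 was the lowest of the 9 entries with at least 100 input reads, with 1485 ChIP reads against 1531 input reads and a ratio of 0.702 (0.653 to 0.755), or 0.872 (0.812 to 0.937) relative to the median repeat. Both intervals thus lay below the median repeat, whereas those of the other 7 included it. Among the 704 entries MamRep1527 ranked 116 and MamRep605 ranked 56 from the lowest ratio. MamRep1879 was the highest, with 162 ChIP reads against 125 input reads and a ratio of 0.938 (0.738 to 1.19). MamRep564 had 267 ChIP reads against 209 input reads, giving a ratio of 0.925 (0.769 to 1.11) whose interval lay above the ratio of the MamRep pool. MamRep1527 supplied 67.4% of the input reads of that pool. Relative to the median repeat the interval of MamRep564, 0.955 to 1.38, included 1. Without MamRep1527 the pooled MamRep log2 ratio was -0.35 (-0.41 to -0.30) in place of -0.41. That interval included the median repeat at -0.31, so the place of the pool below the median repeat depended on MamRep1527.

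The count of entries below input was near that of repeats in general. Of the 29 entries with at least 100 input reads, 23 had an interval below 1, or 79.3%, against 79.5% of all 704 entries, and 0 had one above 1, against 7.81%. Relative to the median repeat 5 of 29 lay below it, against 19.2% of all entries, and 0 lay above it, against 27.3%. The 5 were MamRep1527, MamRep605, UCON5, UCON7 and UCON28a. Calls depend on read number, and 26 of the 29 entries had fewer than 1000 input reads. Among all 298 entries with 100 input reads or more but fewer than 1000, 72.5% lay below 1 and 4.03% above it, and the median repeat had 11.1% below it and 14.8% above it. Of the 26, 20 lay below 1 and 0 above it, and 3 were below the median repeat with 0 above it. Below 300 input reads, a background added after seeing the data, 13 of 19 entries lay below 1, against 62.9% of 132, and 0 above it, against 3.03%. Of the 19, 3 lay below the median repeat, against 10.6%, and 0 above it, against 9.09%. The median ratio of these 19 entries was 0.701, against 0.776 for all 132.

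Of the 20 lowest ratios among the 704 entries, 6 belonged to UCON5, UCON7, Eulor6B, Eulor1, UCON28a and UCON8, while UCON and Eulor together supplied 16 of the 704. Fewer than 300 input reads stood behind 16 of these 20, behind 26 of the lowest 50 and behind 36 of the lowest 100, against 132 of all 704. Of the 132, 19 belonged to the 68 entries described here. The highest rank of any of the 29 was 117 from the top, by MamRep1879. Keeping entries by their input reads uses the same count that divides the ratio. In this set the 29 kept entries had a median log2 ratio of -0.39 and the 39 entries under 100 input reads had one of -0.24. Over the whole table the medians were -0.31 with at least 100 input reads and -0.25 below. Pooled ratios over all entries, as given above, do not depend on this minimum. Pooled values relative to the median repeat do, because that median was taken over the 704 entries. When entries were kept by at least 50 input reads in lane 1 and measured in lane 2, an alternative added after seeing the data, the median UCON ratio was 0.695 over 12 entries, against 0.806 over all 705 kept entries. The converse gave 0.709 over 14 UCON entries in lane 1, against 0.808 over 706. For Eulor the same choices gave medians of 0.737 over 4 entries in lane 2 and 0.843 over 5 entries in lane 1, and 0.786 over 4 entries kept by at least 200 ChIP plus input reads, against 0.687 over the 4 with 100 or more input reads. The Eulor median thus lay above that of all kept entries in 1 of these 3 alternatives.

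**Figure D3:**
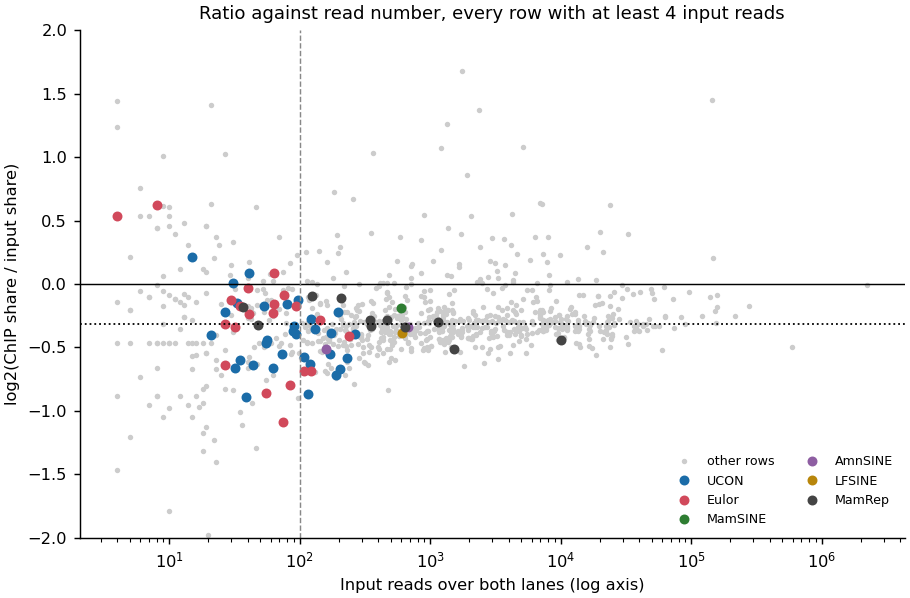
Log2 of ChIP share over input share (y axis) against input reads over both lanes (x axis, log scale) for entries with at least 4 input reads; coloured points are the 68 entries by name group and grey points all others. The dashed vertical line marks 100 input reads, the dotted line the median repeat at -0.31, and 6 grey entries fall outside the plotted range of -2 to 2 or have no ChIP read. The spread narrows with read number, and coloured points right of 100 reads all lie below 0.

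Against repeats listed as old by name the differences were small. A ratio of 2 pools does not depend on the scale between the libraries. UCON had 0.943 (0.897 to 0.991) times the ratio of named DNA transposons, a list that includes cut-and-paste elements such as Tigger and Charlie. UCON also had 0.937 (0.892 to 0.986) times the ratio of the MER (medium reiterated) entries. In lane 2 alone both UCON intervals included 1. MIR is a SINE and L2 a long interspersed element (LINE), both spread in early mammals. The MIR and L2 list also took in names beginning with L3, L4 or L5. Against this list UCON had 0.883 (0.840 to 0.929). Relative to the median repeat, DNA transposons stood at 0.970 (0.964 to 0.977) and MER entries at 0.975 (0.969 to 0.982), both also below it. MIR and L2 stood above it, at 1.035 (1.029 to 1.041). URR1A supplied 22.2% of the input reads of the DNA transposon list, which was not also measured without URR1A. Eulor had 0.926 (0.861 to 0.995) times the MIR and L2 ratio, an interval that included 1 once its largest entry, Eulor8, was left out, at a log2 difference of -0.10. It had 0.988 (0.918 to 1.06) times that of DNA transposons. MamRep had 0.964 (0.942 to 0.987) times the DNA transposon ratio, but without MamRep1527 the log2 difference was 0.0054 in place of -0.053 and its interval included 0. MamSINE1 lay the other way, at 1.12 (1.01 to 1.25) times the DNA transposon ratio and 1.05 (0.942 to 1.17) times that of MIR and L2. With single lanes, fewer reads and wider intervals, the Eulor difference from MIR and L2 and the MamRep difference from DNA transposons included no difference in lane 1, and that of MamSINE1 from DNA transposons did so in both lanes. All 4 comparisons of the AmnSINE and LFSINE pools with DNA transposons and MER entries had intervals that included 1 over both lanes, but in lane 1 alone LFSINE lay below both lists.

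The 6 groups differed little from each other. Of 15 pairs, compared without adjustment, 13 had a ratio of pools with an interval that included 1. The others both involved MamSINE1, with UCON at 0.841 (0.747 to 0.947) times MamSINE1, and MamSINE1 at 1.16 (1.04 to 1.30) times MamRep. MamRep1527 supplied 67.4% of the MamRep input reads, and the comparison of MamSINE1 with MamRep was not also made without it. UCON stood at 0.954 (0.874 to 1.04) times Eulor, so at this depth a difference between them was not detectable, while the interval allows values down to 0.874.

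The lanes gave a measure of counting noise within the same libraries. For the 29 more abundant entries the median gap between lane log2 ratios was 0.17, and the widest was 0.87, for Eulor1. Only MamRep564 lay on opposite sides of the input level, at a log2 ratio of 0.11 in lane 1 and -0.32 in lane 2. Among the 39 scarcer entries the median difference was 0.52 and 17 changed side, against 82 of all 209 entries under 100 input reads that had reads of both libraries in both lanes. UCON25 moved most, with 10 ChIP reads against 17 input reads in lane 1 and 12 ChIP reads against 4 input reads in lane 2. In 0 of the 68 entries did the intervals of both lanes fail to overlap, against 4 of all 952. UCON28a was close in both lanes, at -0.68 and -0.66, while UCON5 was at -1.12 and -0.62 and UCON7 at -0.91 and -0.54.

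**Figure D4:**
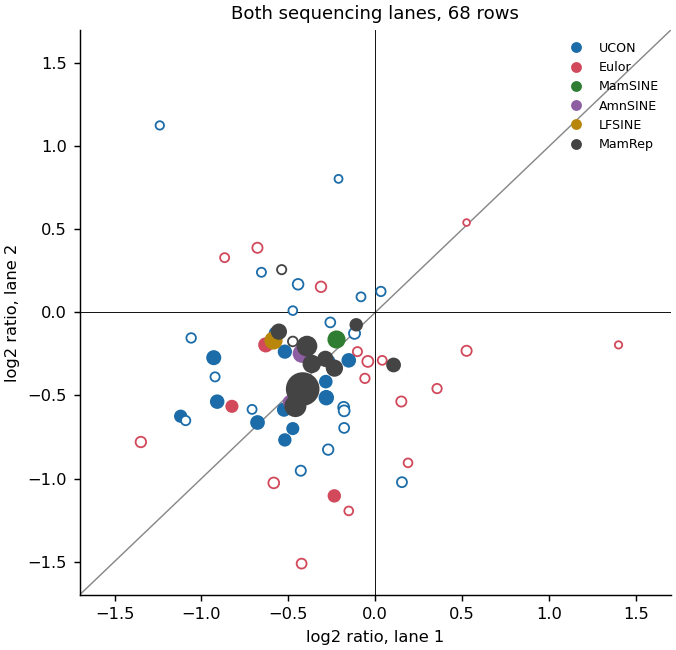
Log2 ratio in lane 2 (y axis) against lane 1 (x axis) for the 68 entries, coloured by name group; point area grows with input reads, and open points have fewer than 100 input reads. The grey diagonal marks equal values. Of the filled points, only MamRep564 lies on opposite sides of 0 in the lanes, whereas 17 open points do.

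The authors' deposited table was read for the same entries. By its conservative log2 value, which is 0 where the interval spans 0, the authors' deposited table put 18 of the 68 entries below 0 and 2 above 0 in lane 1, against 40.8% below and 13.3% above among all 952 entries. In lane 2 the authors' deposited table put 15 below 0 and 0 above 0, against 40.2% and 12.9%. These shares are not matched for read number, on which calls depend. Fewer than 100 input reads stood behind 39 of the 68 entries, against 248 of all 952. The deposited scale also puts log2 ratios 0.17 higher than the scale of the table totals. The 2 entries above 0 in lane 1 were Eulor9B and Eulor9C, at 0.12 and 0.098 in the authors' deposited table, and both were at 0 in lane 2 there. Those entries were chosen after their values were seen.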

How the data were processed

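Counts per repeat type were analysed for 1 H3.3S31ph ChIP sample (10 µg antibody) and 1 input sample. Per the labels' protocols, chromatin was fixed with 0.4% formaldehyde, sheared to about 300 bp, amplified for 10 cycles and sequenced as single 50 bp reads. Bowtie 1.0.0 and mm9 are listed in the submitters' processing notes. The treatment of multiply matching reads and of duplicates is not given in the sources consulted. The authors deposited raw read counts and their own log2 ratio with bounds and a conservative value, per the file headers, 1 table per lane.

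Lanes were summed and ratios computed with Python 3.11.15 and SciPy 1.17.1, with exact conditional (Clopper-Pearson) intervals, and with intervals on the log scale for a ratio of pools. The computation was tested on simulated counts with known ratios and counting error only. That test checks the computation and cannot show whether the intervals hold for real amplified libraries. Intervals cover counting error only. Reads carry no molecular identifiers, so copies of an amplified fragment cannot be told from separate fragments, and intervals may be too narrow. Entries named are, per group, the most abundant, highest and lowest with at least 100 input reads, those whose interval excludes the median repeat, and the most and least abundant scarce ones. MamRep564, Eulor1, UCON8, UCON25 and entries so marked were chosen after their values were seen. Groups, lists and rules were chosen with earlier results of these data known. Repeats taken as old were listed by name prefix: MIR and L2 with L3 to L5 (8 entries), DNA transposons (84) and MER (141, of several classes). Alternatives were each lane, 4 other scales, other read minimums, 1 read added and pools without their largest entry.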

Additional observations from a re-analysis of the deposited data

How the results depend on the processing

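The scale between the libraries moved every log2 ratio by 1 constant. With the median repeat set to 1, log2 ratios were -0.090 for all 68 entries, -0.13 for UCON, -0.062 for Eulor, 0.12 for MamSINE1 (a change of direction), -0.054 for AmnSINE, -0.071 for LFSINE and -0.097 for MamRep. With MIR and L2 set to 1 they were -0.14, -0.18, -0.11, 0.071 (again a change of direction for MamSINE1), -0.10, -0.12 and -0.15 in the same order. On the scale recovered from the deposited log2 values they were -0.23, -0.27, -0.21, -0.024, -0.20, -0.22 and -0.24. Without the 5 entries with the most input reads they were -0.47 for all 68 and -0.48 for MamRep. Entries below 1 numbered 23, against 5 with the median repeat set to 1, 8 with MIR and L2 set to 1 and 16 on the deposited scale. They numbered 17 in lane 1 alone, 15 in lane 2 alone and, with at least 300 input reads, 10 of the 10 entries kept. The count was 26 without the 5 entries with the most input reads and 24 with 1 read added. It was 29 with no read minimum and 28 with at least 50 input reads. Entries above 1 numbered 0 under all 10 alternatives. Over the whole table, 79.5% lay below 1 and 7.81% above it on the main scale, and 19.2% and 27.3% with the median repeat set to 1. With no read minimum these shares were 61.7% and 6.20%, against 42.6% and 0% of the 68 entries. For the other alternatives the share over the whole table was not computed, so their counts show no trait of the 68 entries. LFSINE was at -0.59 in lane 1 and -0.17 in lane 2. Its log2 differences were -0.32, -0.23 and -0.25 from MIR and L2, DNA transposons and MER in lane 1, and 0.090, 0.19 and 0.19 in lane 2. Without the largest entry, log2 ratios were -0.37 for all 68, -0.51 for AmnSINE and -0.35 for MamRep. The differences from MIR and L2, DNA transposons and MER were then -0.11, -0.015 and -0.023 for all 68, -0.25, -0.16 and -0.16 for AmnSINE, and -0.088, 0.0054 (a change of direction) and -0.0025 for MamRep. The cause of these shifts was not tested beyond the construction of each alternative. The median log2 ratio of the kept entries was -0.39, and -0.33 to -0.40 under 3 other ways of keeping entries, added after seeing the data. No paired analysis was possible because each group has 1 sample. Depth limits single entries: at 100 input reads or more, the upper bound of an interval was a median of 1.48 times the lower bound, and 2.33 times below 100.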
